A study of Mus musculus with 12 samples.

Results

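Polyamine metabolism was followed through 9 genes, Odc1, Azin1, Oaz1, Oaz2, Amd1, Srm, Sms, Sat1 and Smox. They were chosen by symbol, with earlier results of these data known, and all 9 were found among the 22467 transcripts of the count table, each as 1 transcript. The table holds ribosome profiling and RNA-seq of single whole mouse embryos at E8.5 on a C57BL/6 background, 3 Rpl10a +/+ (WT) and 3 Rpl10a LOF/LOF, with both libraries made from the lysate of the same embryo. The LOF allele arose by CRISPR editing of the Rpl10a locus and adds residues to the N-terminus of RPL10A, a protein of the large ribosomal subunit. It is a partial loss of function carried in every cell of the embryo, and embryos were not pooled. Age, strain and dissection in cycloheximide were shared by both genotypes.

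The polyamines putrescine, spermidine and spermine are small positively charged molecules that bind nucleic acids and are needed for growth, and spermidine is also the donor for the hypusine residue of the translation factor eIF5A. Ornithine decarboxylase (Odc1) makes putrescine, S-adenosylmethionine decarboxylase (Amd1) supplies aminopropyl groups, and spermidine synthase (Srm) and spermine synthase (Sms) add them. Antizymes (Oaz1, Oaz2) bind ornithine decarboxylase and send it to the proteasome, the antizyme inhibitor (Azin1) captures antizyme, and Sat1 and Smox acetylate and oxidize polyamines. Synthesis of antizyme needs ribosomes to shift by 1 base past a stop codon, which they do more often when polyamines are plentiful.

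That shift site is shown first, because it lies inside the coding sequence (CDS) on which ribosome-protected fragments (RPFs) of both antizymes were counted. The 30 bases around it were read from GENCODE vM21 transcripts of GRCm38 that keep every base, with the last codon of the first frame and the TGA stop in capitals.
Oaz1: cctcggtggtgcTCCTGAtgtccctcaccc
Oaz2: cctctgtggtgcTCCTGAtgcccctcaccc
The counted transcripts bridge the stop with a gap of 1 base between annotated exons, at position 80828295 of chromosome 10 for Oaz1 and at 65686272 of chromosome 9 for Oaz2. The first frame ends after codon 68 of 227 in Oaz1 and after codon 32 of 189 in Oaz2. The table holds 1 RPF count per transcript, so ribosomes before and after the shift cannot be told apart.

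RPF libraries held 7041357 to 10863499 counts and RNA libraries 9132521 to 26561843. Rpl10a itself, the targeted gene, had 1562 to 1679 CPM (counts scaled to the library total by TMM) in RPFs of WT embryos and 939.7 to 1125 in Rpl10a LOF/LOF embryos (log2 fold change −0.64, FDR = 0.00689, adjusted by Benjamini-Hochberg, in the quasi-likelihood test of edgeR). The 8 markers of the E8.5 embryo, among them T, Sox2 and Kdr, were detected in every library. Rpl10a LOF/LOF replicate 2 stood apart from replicates 1 and 3. On principal component 1 of the RPF libraries, which held 41.5% of the variance, it scored −3.18, between the WT embryos at −14.6 to −9.42 and the other Rpl10a LOF/LOF embryos at 20.1 and 20.3. Uty, Kdm5d, Eif2s3y and Ddx3y, on the Y chromosome, had a summed RPF CPM of 163 to 181 in WT embryos and of 153 in replicate 2, against 9.33 and 0.380 in replicates 1 and 3, so the WT embryos and replicate 2 carried a Y chromosome signal and the other mutants little or none. Visceral endoderm markers summed to 6450.0 to 8493 RPF CPM in WT and to 3274, 4882 and 2324 in Rpl10a LOF/LOF replicates 1 to 3, and 8 of 10 passed FDR < 0.1, all lower. Primitive erythroid markers summed to 837 to 2817 RPF CPM in WT and 3513 to 5783 in Rpl10a LOF/LOF, and 3 of 7 passed, all higher. Of all transcripts tested in RPF, 2.19% passed FDR < 0.1. Trophoblast and decidua markers summed to 179 to 335 RPF CPM in WT and 143 to 354 in Rpl10a LOF/LOF. In whole embryos, fewer cells of a type and less RNA per cell cannot be told apart.

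In WT embryos the 9 genes spanned a wide range of RNA and RPF levels (CPM per kilobase, of the transcript for RNA and of the counted CDS for RPF). Odc1 had the highest RNA level as counted, at 419.7 ± 19.8 (SD, n = 3), followed by Oaz1 at 175 ± 9.68 and Srm at 159.6 ± 6.02. Azin1, Oaz2, Sms and Sat1 lay between 64.6 and 14.6. Smox was at 3.70 ± 0.748 and Amd1 at 0.903 ± 0.124. Leaving out Oaz1 and Amd1, each neighbouring pair in this order was separated in every WT embryo. Oaz1 and Amd1 have only 40.8% and 7.81% of the 28-base windows of their transcripts to themselves, so that their places in this order, and that of Odc1 as the first, could differ if shared reads went uncounted. In RPFs the order of the other 7 differed, with Srm first at 251 ± 6.90, Odc1 next at 149 ± 8.09 and Azin1 after it at 57.6 ± 4.05, and each of their neighbouring pairs was again separated in every embryo.

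**Figure D1:**
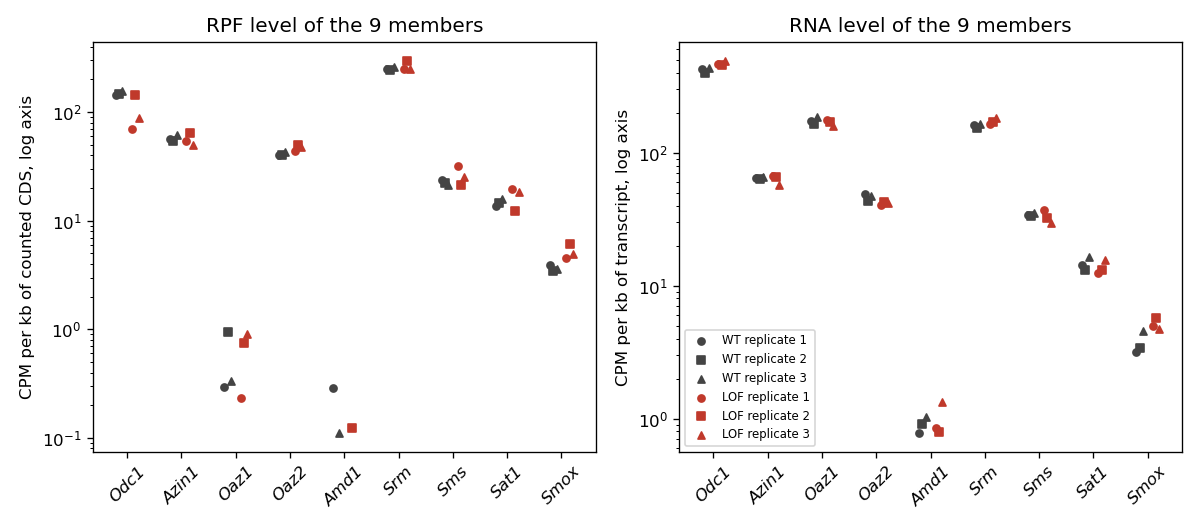
Level of the 9 genes in each embryo as CPM per kilobase on log axes, RPF over the counted CDS on the left and RNA over the transcript on the right, with WT in grey and Rpl10a LOF/LOF in red. Oaz1 and Amd1 stand far lower in RPF than in RNA, and Amd1 libraries with an RPF count of 0 are not drawn.

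Oaz1 and Amd1 could not be followed in RPFs. Oaz1 (ENSMUST00000180036.7) is encoded by 6 exons on the plus strand of chromosome 10 of GRCm38, from 80826686 to 80829290. Amd1 (ENSMUST00000099945.5) has 8 exons on the minus strand of chromosome 10, from 40287458 to 40302186. Oaz1 had 2, 5 and 2 RPF counts in the WT embryos and 1, 4 and 6 in the Rpl10a LOF/LOF embryos, beside 1547 to 4503 RNA counts. Amd1 had 3, 0 and 1 RPF counts in WT and 0, 1 and 0 in Rpl10a LOF/LOF, beside 22 to 76 RNA counts. Neither gene reached the filter, which asked for over 0.75 CPM in 3 or more of the RPF libraries. Both share most of their sequence with a copy in the same table. Of the 28-base windows in the counted CDS, 55 of 597 (9.21%) were found in no other listed transcript for Oaz1 and 28 of 918 (3.05%) for Amd1. The copies are the processed pseudogene Oaz1-ps, which has no annotated CDS on which RPFs could be counted and had 17 to 64 RNA counts, and Amd2, with no RPF count and 0 to 17 RNA counts. How reads with several matches were handled is not given in the sources used here, and the part of shared sequence in the low counts was not tested. Sms is the only other gene of the list below 100%, at 673 of 1014 windows (66.4%), with Gm8234 as its copy. Only 384 of 19527 transcripts with a CDS had under 10% of windows to themselves.

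The other 7 genes passed the filter, as did 12576 transcripts in all, and RPF/RNA was compared per length on the log2 scale with raw library totals. The median of all 12552 transcripts that could be ranked was 0.79, with quartiles at 0.017 and 1.43, and all 7 genes lay below that median. Srm came nearest at 0.70 ± 0.0088 (SD, n = 3; 46.7th percentile). Sat1 was at 0.051 ± 0.11, Smox at 0.036 ± 0.33, Azin1 at −0.13 ± 0.091 and Oaz2 at −0.14 ± 0.071, between the 21st and the 25.8th percentile. Neighbouring values of these 4 overlapped between embryos, while Sat1 lay above Azin1 and Oaz2 in every embryo. Sms followed at −0.58 ± 0.11 (12.7th percentile), below Oaz2 in every embryo. With unique windows in place of length, a setting added after the data had been seen, Sms was at −0.10, level with Azin1 at −0.10.

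Odc1 had the lowest RPF/RNA of the 7 genes. Odc1 (ENSMUST00000171737.2) is encoded by 12 exons on the plus strand of chromosome 12 of GRCm38, from 17544794 to 17551084. Its log2 RPF/RNA was −1.52, −1.41 and −1.42 in the 3 WT embryos, a mean of −1.45 ± 0.059, at rank 465 from the bottom of 12552 transcripts (3.70th percentile). All 3 WT values lay below those of Sms. Its RNA stood at the 99.2th percentile of all transcripts and its RPF at the 90.9th. The Odc1 5'UTR is 489 nt long with 70.6% GC, against medians of 182 nt and 64.8% over the transcripts tested. It holds 2 upstream ATGs, at positions 128 and 342 from its 5' end, which open reading frames of 8 and 10 codons. Azin1 has 3 upstream ATGs, Sms 4, Sat1 2 and Amd1 1, while Oaz1, Oaz2, Srm and Smox have none. At least 1 upstream ATG was present in 51.6% of tested transcripts with a 5'UTR of 20 nt or more. Amd1's single upstream frame, of 6 codons from position 12, has the same length in the copy Amd2. RPF reads in 5'UTRs are outside the counts and were not analysed here.

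**Figure D2:**
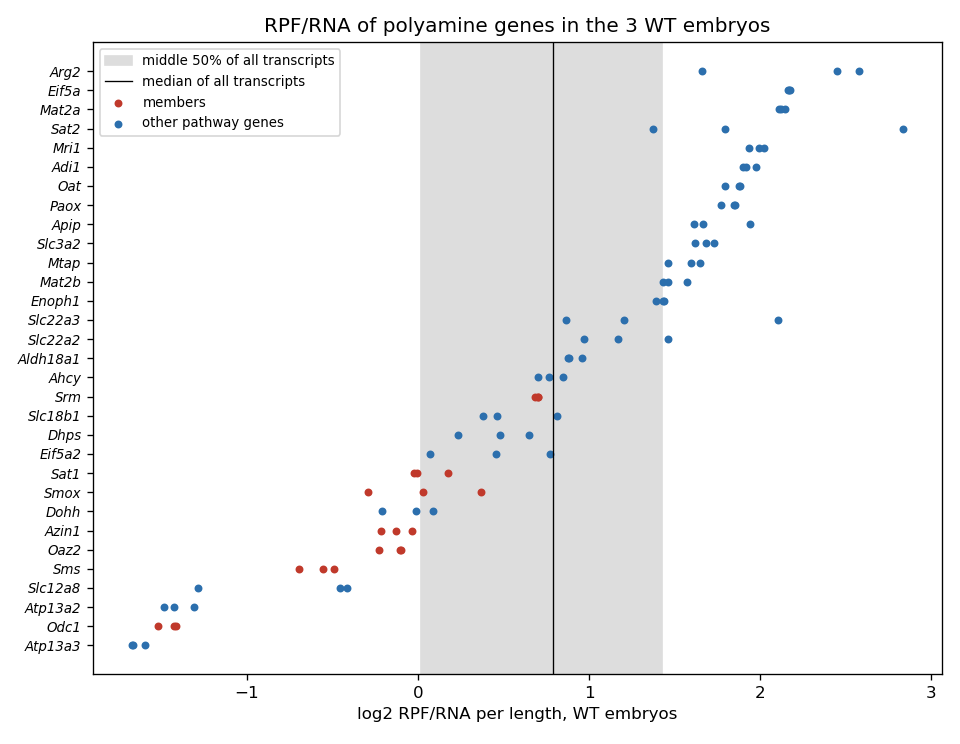
log2 RPF/RNA per length in the 3 WT embryos for the 7 tested genes (red) and other polyamine pathway genes (blue), sorted by mean. The grey band spans the quartiles of all ranked transcripts and the line marks their median of 0.79. Odc1, Atp13a2 and Atp13a3 lie at the far left, and Eif5a and Mat2a at the right.

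The pathway around the 9 genes was read from a list of 31, of which 25 were tested. The 7 transporters tested ranged widely in WT RPF/RNA. Atp13a3 and Atp13a2, polyamine transporters of the endosome and lysosome, were at −1.64 ± 0.042 (2.82th percentile) and −1.40 ± 0.089 (4.06th percentile), and Slc12a8 was at −0.72 ± 0.49, on 4 to 9 RPF counts per WT library. Slc18b1, Slc22a2, Slc22a3 and Slc3a2 lay on the other side of 0, at 0.55 ± 0.23, 1.20 ± 0.25, 1.39 ± 0.64 and 1.68 ± 0.055, where Slc22a2 and Slc22a3 had 3 to 19 counts per WT library. Eif5a, which receives the hypusine residue, was at 2.17 ± 0.0063 (93.5th percentile). Mat2a, which makes S-adenosylmethionine, was at 2.12 ± 0.017, and the polyamine oxidase Paox at 1.82 ± 0.047. The enzymes that build hypusine, Dhps and Dohh, were at 0.45 ± 0.21 and −0.045 ± 0.15.

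Between the genotypes, Odc1 had log2 fold changes below 0 in RPF and RPF/RNA and above 0 in RNA. Its RPFs were 189, 195 and 209.7 CPM in the WT embryos and 92.6, 189.8 and 116 in Rpl10a LOF/LOF replicates 1 to 3. Replicates 1 and 3 lay well below the WT embryos, and replicate 2 lay among them. Odc1 RNA was 936, 879 and 965 CPM in WT and 1021, 1014 and 1080.2 in Rpl10a LOF/LOF, with every mutant above every WT embryo. RPF/RNA per length was −2.72, −1.62 and −2.43 in the mutants, all below the WT values, though replicate 2 by far the least. In edgeR's fits the log2 fold change was −0.57 in RPF (SE 0.20, FDR = 0.223), 0.16 in RNA (SE 0.053, FDR = 0.150) and −0.73 in RPF/RNA (SE 0.23, FDR = 1.00). The RPF/RNA change ranked 76 from the bottom of 12576 transcripts.

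The Odc1 values depended on the embryos. Without Rpl10a LOF/LOF replicate 2, the log2 fold change was −0.91 in RPF (FDR = 0.000228) and −1.10 in RPF/RNA (FDR = 0.00202), settings in which 11.5% and 0.207% of all transcripts were called. Replicate 2 is also the mutant with the Y-linked signal, so that comparison sets mutants with little or no Y-linked signal against WT embryos that all have it, and genotype and sex cannot be told apart there. The summed visceral endoderm markers were also lower in replicates 1 and 3 than in replicate 2, and their part in the Odc1 values was not tested. With the Y-linked level as a covariate the RPF change was −0.11. That level was low only in replicates 1 and 3, so the genotype term of this fit rests mainly on replicate 2. In replicate 2 itself the log2 change of Odc1 RPF from the WT mean was −0.058. Odc1 RPF passed FDR < 0.1 with limma-voom and sva (−0.50, FDR = 9.93e-05), where 10.4% of transcripts were called, and with all transcripts having any RPF count tested (FDR = 0.0540), where 2.58% were. It also passed by edgeR with the replicate block (−0.63, FDR = 0.0534), where 2.49% were called, though the replicate numbers do not pair the genotypes. It did not pass with DESeq2 (FDR = 0.622) or limma-voom (FDR = 0.152).

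Oaz2, an antizyme, had fold changes of the opposite sign to those of Odc1 in all 3 comparisons. Oaz2 (ENSMUST00000153700.8) has 6 exons on the plus strand of chromosome 9, from 65676548 to 65690300. Oaz2 RPFs were 20.6, 20.4 and 21.8 CPM in WT and 22.6, 25.6 and 24.5 in Rpl10a LOF/LOF, and its RNA was 90.3, 80.5 and 87.3 in WT and 75, 78.9 and 77.6 in Rpl10a LOF/LOF. RPF was higher and RNA lower in every mutant than in every WT embryo. The log2 fold change was 0.22 in RPF (FDR = 0.388), −0.15 in RNA (FDR = 0.198) and 0.37 in RPF/RNA (SE 0.10, FDR = 1.00 by edgeR). The RPF/RNA change of Oaz2 ranked 11734 from the bottom of 12576 transcripts (93.3th percentile), less far out than that of Odc1. In the embryos, RPF/RNA stood 0.31, 0.42 and 0.38 above the WT mean, replicate 2 included. Without replicate 2 the RPF/RNA change was 0.35.

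**Figure D3:**
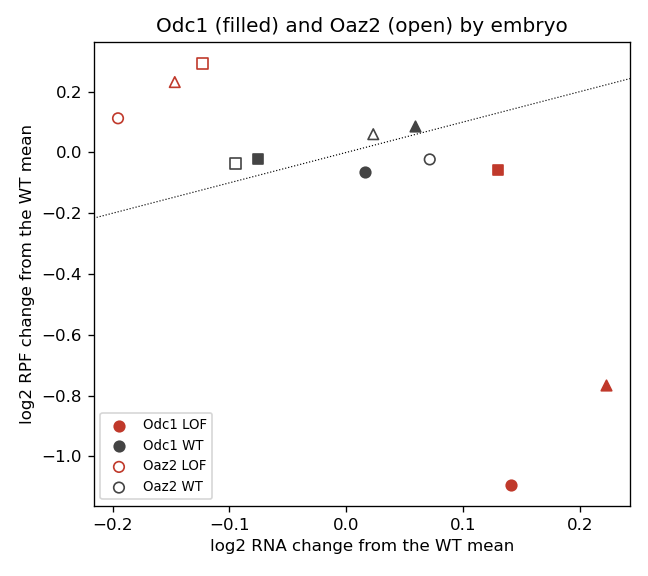
log2 change of RPF against log2 change of RNA from the WT mean in each embryo, for Odc1 (filled) and Oaz2 (open), with circles, squares and triangles for replicates 1, 2 and 3 and a dotted line where both change alike. The mutant Odc1 points lie below the line, replicate 2 closest to it, and the mutant Oaz2 points lie above it.

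Azin1, the inhibitor of antizyme, had fold changes near 0. Azin1 (ENSMUST00000065308.12) spans 12 exons on the minus strand of chromosome 15, from 38487427 to 38519266. Its RPFs were 73.4, 69.4 and 79.7 CPM in WT and 69.2, 82.4 and 64.2 in Rpl10a LOF/LOF, and the groups overlapped. Its log2 fold changes were −0.046 in RPF, −0.027 in RNA and −0.019 in RPF/RNA.

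Srm, spermidine synthase (ENSMUST00000006611.8), has 7 exons on the plus strand of chromosome 4, from 148591503 to 148594619. Srm had 214, 207 and 219 RPF CPM in WT and 213, 251 and 211 in Rpl10a LOF/LOF. Only replicate 2 stood above the WT embryos, and the log2 fold changes were 0.077 in RPF, 0.12 in RNA and −0.039 in RPF/RNA. Sms, spermine synthase (ENSMUST00000112529.7), has 11 exons on the minus strand of the X chromosome, from 157443855 to 157492287. Sms had 24.5, 23.2 and 22.0 RPF CPM in WT and 33.1, 22.2 and 26.2 in Rpl10a LOF/LOF, with the 2 values above WT in replicates 1 and 3. Its log2 fold changes were 0.22 in RPF, −0.047 in RNA and 0.26 in RPF/RNA, and the RPF change was 0.061 without Rpl10a LOF/LOF replicate 1 and 0.34 without replicate 2.

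Sat1, the acetylating enzyme of polyamine breakdown (ENSMUST00000026318.14), has 6 exons on the minus strand of the X chromosome, from 155213132 to 155216449. Sat1 had 6.22, 6.67 and 7.19 RPF CPM in WT and 8.89, 5.59 and 8.37 in Rpl10a LOF/LOF. As for Sms, replicates 1 and 3 were above the WT embryos and replicate 2 was not. The log2 fold changes of Sat1 were 0.18 in RPF, −0.11 in RNA and 0.29 in RPF/RNA. Without Rpl10a LOF/LOF replicate 1, 2 or 3 the RPF change was 0.074, 0.36 or 0.094. Both genes are X-linked, and the Y-linked covariate took their RPF changes from 0.22 and 0.18 to −0.0035 and −0.22. It also moved the RPF changes of the autosomal genes Azin1 (from −0.046 to 0.16), Srm (from 0.077 to 0.23) and Odc1 (from −0.57 to −0.11). The genotype term of that fit rests mainly on Rpl10a LOF/LOF replicate 2. The log2 RPF changes of that embryo from the WT mean were −0.062 for Sms, −0.26 for Sat1, 0.15 for Azin1, 0.24 for Srm and −0.058 for Odc1. The part of the sex of the embryos in these values cannot be told apart from that of genotype in replicates 1 and 3. Smox (ENSMUST00000110181.7) has 7 exons on the plus strand of chromosome 2, from 131491964 to 131525922. Smox, which oxidizes spermine, had 4.30, 3.75 and 3.96 RPF CPM in WT and 4.96, 6.75 and 5.42 in Rpl10a LOF/LOF. Its RNA was 7.22, 7.83 and 10.5 CPM in WT and 11.5, 13 and 10.8 in Rpl10a LOF/LOF. Every mutant lay above every WT embryo in both, with log2 fold changes of 0.51 in RPF (SE 0.19, FDR = 0.260), 0.46 in RNA (SE 0.14, FDR = 0.141) and 0.051 in RPF/RNA. Without WT replicate 3, Smox RNA passed (FDR = 0.0553 by edgeR), a setting in which 3.82% of all transcripts were called. The RPF values rest on 32 to 58 counts per library. The summed primitive erythroid markers were at 673, 402 and 1698 RNA CPM in WT and 1519, 2544 and 1803 in Rpl10a LOF/LOF. As for Smox RNA, WT replicate 3 was the highest of the WT embryos and replicate 2 the highest of the mutants. Mutant replicates 1 and 3 stood in the opposite order to Smox RNA, and so did WT replicates 1 and 2. In RPF the WT embryo with most of these markers was replicate 3 and that with most Smox was replicate 1. The part of these markers in the Smox values was not tested.

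**Figure D4:**
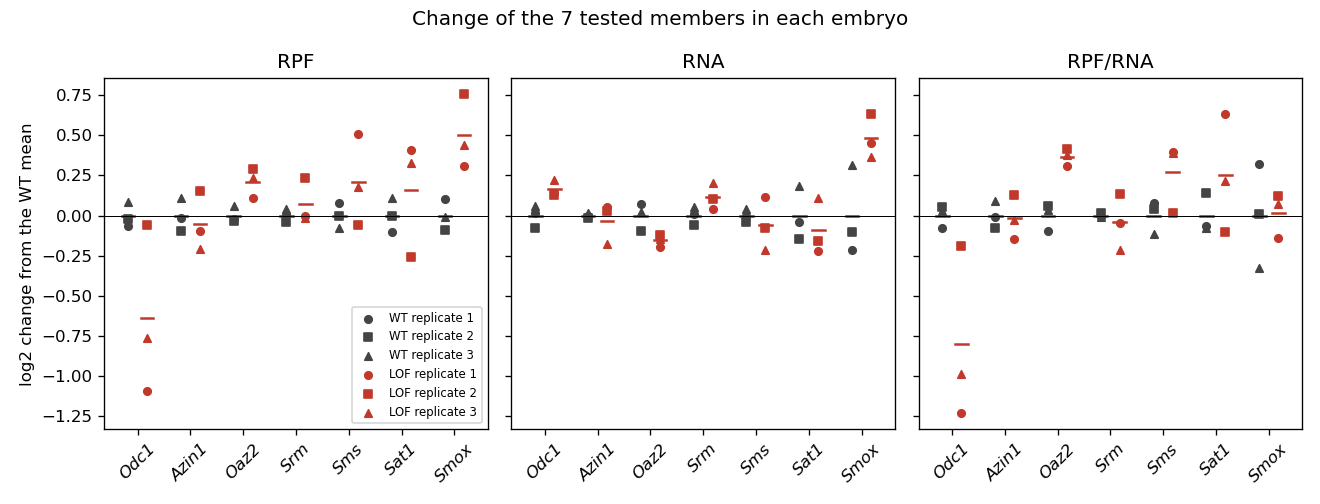
log2 change from the WT mean in every embryo for the 7 tested genes, in RPF, RNA and RPF/RNA, with bars at the group means. Odc1 is low in RPF and RPF/RNA in Rpl10a LOF/LOF replicates 1 and 3, and Oaz2 RPF/RNA and Smox RPF are higher in all 3 mutants.

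Counted over the list, 0 of the 7 tested genes passed FDR < 0.1 by edgeR in RPF, RNA or RPF/RNA, where 2.19%, 5.02% and 0.0% of all 12576 transcripts did. At an unadjusted p under 0.05 there were 2, 3 and 2, against 13.7%, 17.0% and 4.44% of all transcripts. DESeq2 called 0, 1 (Odc1) and 0, where it called 2.12%, 4.92% and 0.0318% of all transcripts. Limma-voom called none of the 7, beside 2.62%, 5.63% and 0.0% of all transcripts, and limma-voom with sva called 2 (Odc1, Smox), 0 and 0, beside 10.4%, 4.69% and 0.0%. Mutant and WT embryos did not overlap for 2 genes in RPF (Oaz2, Smox), 3 in RNA (Odc1, Oaz2, Smox) and 2 in RPF/RNA (Odc1, Oaz2), against 19.4%, 22.8% and 12.1% of all transcripts. The median log2 fold change of the 7 was 0.18, −0.027 and 0.051, beside 0.0036, −0.0018 and 0.0066 over all transcripts tested. Since the genes were chosen with these contrasts known, the counts describe the list and are no support for a change of the pathway.

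The 25 other pathway genes also had no call at FDR < 0.1 by edgeR in any of the 3 comparisons, where 2.19%, 5.02% and 0.0% of all transcripts were called. At an unadjusted p under 0.05 there were 4, 7 and 0, against 13.7%, 17.0% and 4.44% of all transcripts. The 4 in RPF include Slc12a8 and Slc22a3, which reached the filter mostly through mutant libraries and are no support for a difference. Slc22a3 was over 0.75 CPM only in Rpl10a LOF/LOF replicates 2 and 3 and WT replicate 3, with 4 to 8 RPF counts in WT and 2 to 31 in the mutants. DESeq2 called 0, 1 (Oat, in RNA, beside 4.92% of all transcripts) and 0 of them, and limma-voom none, where it called 2.62%, 5.63% and 0.0% of all transcripts. Limma-voom with sva called 3 in RPF (Atp13a3, Oat, Slc12a8), beside 10.4% of all transcripts, 1 in RNA (Oat), beside 4.69%, and 0 in RPF/RNA. Slc12a8 had 4 to 9 RPF counts in the WT libraries and 8 to 16 in the mutants, and it passed the filter with the 3 mutants and only 1 WT embryo over 0.75 CPM, so that its call is no support for a difference. The median log2 fold changes of the 25 genes were −0.029, −0.041 and 0.036. Mutant and WT embryos did not overlap for 3, 9 and 2 of them, against 19.4%, 22.8% and 12.1% of all transcripts. Slc12a8 is among them in RPF and RPF/RNA, and Slc22a3 in RNA. Atp13a3, a polyamine importer, had 48.0, 48.0 and 43.6 RPF CPM in WT and 29.7, 51.8 and 31.0 in Rpl10a LOF/LOF. As in Odc1, replicates 1 and 3 were low and replicate 2 was not. With all embryos the log2 RPF change of Atp13a3 was −0.31 (SE 0.18, FDR = 0.483 by edgeR). Without replicate 2 it was −0.61 (FDR = 0.00268 by edgeR, a setting in which 11.5% of all transcripts were called). Oat, which interconverts ornithine and glutamate semialdehyde and was named after its values were seen, had RPF 316, 305 and 292 CPM in WT and 228, 255.0 and 280.5 in Rpl10a LOF/LOF, with no overlap, and its RNA was also lower in every mutant. Such a lack of overlap was found for 19.4% of all transcripts in RPF and for 22.8% in RNA. The log2 fold change of Paox was −0.25 in RPF and −0.18 in RNA, neither passing FDR < 0.1. Eif5a, Mat2a, Dhps and Dohh had RPF log2 fold changes between −0.10 and 0.073. Azin2 did not pass the filter on RPF counts.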

How the data were processed

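Ribosome profiling (RPF) and RNA-seq libraries of 6 whole embryos, 12 in all, were analysed. The authors' reference was a set of GENCODE transcripts on GRCm38/mm10, with structural RNAs filtered out by bowtie2 beforehand and unique molecules kept through UMI-tools. The deposited values are raw counts per transcript, for RPFs with the A site in the CDS without its first 15 and last 5 codons and for RNA over the entire transcript. IDs were matched to GENCODE vM21 (21987 with the same version, 477 in another version, 3 unmatched).

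Transcripts over 0.75 CPM in 3 or more of the RPF libraries were kept, RPF and RNA were normalized separately by TMM, and genotypes were compared with edgeR 4.0.16 (R 4.3.3) by its quasi-likelihood test, with the genotype by library interaction for RPF/RNA and Benjamini-Hochberg adjustment over all transcripts. RPF/RNA levels used raw totals and length without the uncounted codons. Embryos are separate animals, so n is 3 per genotype. RPF and RNA deviations of 1 embryo from their group means correlated at 0.191 to 0.403 in the 6 embryos, and the labels give both libraries the same embryo. The main RPF/RNA fit held no term for the embryo and so did not use this pairing, while the block fit of RPF/RNA did. Fits with DESeq2 1.42.0, limma-voom 3.58.1, sva 3.50.0 (2 surrogate variables), RLE size factors, other filters, a Y-linked covariate, blocks and each embryo left out were run, 14 besides the main one. The edgeR fits were also run on simulated counts, drawn separately for each library. The simulated counts held no correlation within an embryo and no deviating replicate, so they do not bear on those features of the data.

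The 9 genes and all lists were chosen with earlier results of these data known. All 9 were named, as were pathway genes with FDR < 0.1 and Mat2a, Eif5a, Dhps, Dohh, Paox, Azin2 and Atp13a3 whatever their values. Some results under this rule are not reported here. Atp13a2, Oat, Slc12a8, Slc18b1, Slc22a2, Slc22a3 and Slc3a2 were named after their values were seen. The study used voom, limma, sva and locfdr, with a design that is not given in the sources used here. Exact permutation tests over embryos were not used, since 3 embryos against 3 cannot go below p = 0.1.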

Additional observations from a re-analysis of the deposited data

How the results depend on the processing

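Of the 7 tested genes' log2 fold changes in 3 comparisons, 264 of 291 values under other settings kept their direction and side of FDR < 0.1, 19 reversed and 8 passed newly. In RPF the number of the 7 genes called was 2 with limma-voom and sva (10.4% of all transcripts called), 1 with any RPF count (2.58%) and 1 with the replicate block (2.49%), and 0 to 1 with an embryo left out, the 1 without Rpl10a LOF/LOF replicate 2 (11.5%). For the pathway list these were 3 with sva and 0 to 2 with an embryo left out, the 2 in that same setting. In RNA, DESeq2 (4.92%) called 1 gene of each list and sva (4.69%) 1 pathway gene, and leaving out an embryo gave 0 to 1 of the 7, the 1 without WT replicate 3 (3.82%). In RPF/RNA leaving out an embryo gave 0 to 1, the 1 without Rpl10a LOF/LOF replicate 2 (0.207%). The replicate numbers do not pair the genotypes, whose same-numbered deviations correlated at −0.10 to 0.082. With the replicate block Odc1 RPF had an FDR of 0.0534, and in RPF/RNA the block by embryo called no gene of either list.

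The median WT RPF/RNA of the 7 genes was −0.13 and moved to −0.19 with the full CDS length, −0.17 with TMM-scaled totals, −2.00 without division by length and −0.088 with unique windows, and lay between −0.16 and −0.080 with a WT embryo left out. Length and scaling set these by construction.

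With the Y-linked covariate Azin1 had 0.16 in RPF, 0.058 in RNA and 0.10 in RPF/RNA, Srm 0.15 in RPF/RNA, Sms −0.0035 in RPF, and Sat1 −0.22 in RPF and −0.015 in RPF/RNA, each against the main sign. The genotype term of that fit rests mainly on Rpl10a LOF/LOF replicate 2. With sva, RPF/RNA of Azin1 was 0.027 and of Srm 0.011. With embryos left out, Azin1 ranged from −0.16 to 0.034 in RPF, −0.071 to 0.039 in RNA and −0.10 to 0.045 in RPF/RNA, Srm from −0.0090 to 0.12 in RPF and −0.13 to 0.049 in RPF/RNA, Sms from −0.14 to 0.020 in RNA, and Smox from −0.14 to 0.19 in RPF/RNA. The cause was not tested. Sat1 ranged from −0.20 to −0.00094 in RNA and 0.12 to 0.44 in RPF/RNA, Odc1 from −0.91 to −0.38 in RPF and Oaz2 from 0.32 to 0.39 in RPF/RNA.

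With 3 embryos per genotype, and 32 to 58 RPF counts for Smox and 48 to 88 for Sat1, small changes of these genes were not detectable. Nothing can be read about Oaz1 or Amd1 in RPFs.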
